A study of Mus musculus with 21 samples.

Results

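Nodal and Activin pathway genes were followed in mouse embryonic stem cells in which a factor of RNA silencing had been edited or blocked. The 9 genes were Nodal, Lefty1, Lefty2, Tdgf1, Inhbb, Smad7, Skil, Tgfbr2 and Acvr2b, taken by gene symbol from the 22512 genes of the deposited table. They were chosen by name with results of these libraries in view, and Lefty1 and Lefty2 were selected on their fold changes, which differed between the experiments. The values of those 2 genes are therefore given as a description, without a test. All 9 genes passed the filter on low counts in every fit.

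Total RNA was sequenced from 7 groups of 3 libraries, 21 in all, which the labels place in 2 experiments. All groups derive from mouse embryonic stem cells of 129S6/SvEvTac background that carry the reporter GFP_5xT71BS and a stable FLAG-Cas9::T2A::Blasticidin insertion, and all were cultured on gelatin with serum and LIF, the cytokine that holds such cells in the pluripotent state. In Experiment 1, untransfected parental cells (W) were set beside cells edited in Trim71 (Trim71-/-, here Trim71KO) and in Ago2 (Ago2-/-, here Ago2KO). In Experiment 2, parental cells transfected with pCIP FH-T6B_WT::mCherry (T6B_WT) or with pCIP FH-T6B_MUT::mCherry (T6B_MUT) were set beside the Trim71-edited and the Ago2-edited cells transfected with an empty plasmid (Trim71KO_empty and Ago2KO_empty). T6B is a peptide from TNRC6B that occupies Argonaute proteins in place of the TNRC6 (GW182) proteins. TRIM71 binds and represses mRNAs, and AGO2 is an Argonaute loaded with microRNAs. Unedited cells with the empty plasmid were not analysed here, so in Experiment 2 genotype and plasmid differ together between the edited groups and T6B_MUT, and they cannot be told apart. The labels do not say how many clones each edited line represents. The series text calls the replicates biological.

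Nodal and the Activins are secreted ligands of the TGF-beta family. They bind pairs of type I and type II receptors, Nodal with the help of a co-receptor, and the receptors phosphorylate SMAD2 and SMAD3, which enter the nucleus with SMAD4. The pathway switches on its own inhibitors, among them the Lefty proteins, SMAD7 and SKIL, and in pluripotent cells it maintains the epiblast state and prepares mesoderm and endoderm. Lefty1 and Lefty2 are textbook targets of 2 microRNA families, miR-290 and miR-302. The miR-290 family is abundant in mouse embryonic stem cells. The level of neither family was analysed here.

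Library totals were 29.6 to 50.8 M counts in Experiment 1 and 33.9 to 57.9 M in Experiment 2. Levels of one gene are given below in CPM, that is, counts scaled to a common library size with TMM within each experiment. Trim71 itself was lower in the edited cells, at 429 ± 26.0 CPM in Trim71KO against 608 ± 9.26 in W, and at 402 ± 8.47 in Trim71KO_empty against 492 ± 10.8 in T6B_MUT (SD, n = 3 in each). Ago2 was 41.9 ± 1.94 CPM in Ago2KO and 142 ± 9.62 in W (SD, n = 3 in each). The libraries labelled Ago2KO_empty did not share one level of Ago2, with 87.4, 167 and 45.6 CPM in replicates 1, 2 and 3 against 123 ± 17.6 in T6B_MUT (SD, n = 3), so each direction drawn from them rests on a label that the Ago2 mRNA of replicate 2 goes against. Replicate 1 lay below the T6B_MUT libraries, which ran from 112 to 143 CPM. Only replicate 3 was near the level of Ago2KO, so leaving out replicate 2 does not leave a group uniformly low in Ago2. All 8 markers of pluripotent cells were detected in every group and summed to 3141.5 to 3444 CPM in W. Their sum was higher in both Trim71-edited groups, at 4009 to 4463 CPM in Trim71KO, and at 4066 to 4232 in Trim71KO_empty against 3173 to 3270 in T6B_MUT. The means of Nanog, Sox2, Zfp42, Esrrb, Klf4 and Tbx3 were higher in both groups than in their controls. Pou5f1 was not, at 1218 CPM in Trim71KO against 1240 in W, and at 950 in Trim71KO_empty against 967 in T6B_MUT. Dppa3, scarcely detected, had lower means in both (0.136 against 0.508 CPM, and 0.172 against 0.246). The 4 mesendoderm markers summed to 4.03 to 7.18 CPM over the 21 libraries, and the 2 feeder-cell markers measured, Col1a1 and Col1a2, to 0.597 to 1.53. In bulk RNA, fewer cells of a type and less RNA per cell cannot be told apart.

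Per kilobase of gene length, which is the scale on which genes can be compared, the co-receptor and the ligands were the most abundant of the 9 genes. In W the deposited RPKM was 221 ± 4.2 for Tdgf1, 52.4 ± 5.34 for Inhbb and 23.5 ± 1.6 for Nodal (SD, n = 3 in each). Skil and Smad7 followed at 15.7 ± 1.02 and 15.1 ± 1.06 RPKM, neighbours whose levels did not differ beyond their spread (SD, n = 3 in each). Lefty1 at 5.35 ± 0.748, Acvr2b at 4.83 ± 0.158 and Lefty2 at 4.56 ± 0.253 RPKM were also close to one another, and Tgfbr2 was lowest at 0.146 ± 0.0167 (SD, n = 3 in each). In T6B_MUT the order was the same down to Smad7, and then came Lefty2 at 10.6 ± 0.955, Lefty1 at 7.19 ± 0.1, Acvr2b at 5.42 ± 0.311 and Tgfbr2 at 0.255 ± 0.0159 RPKM (SD, n = 3 in each).

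The genes differed in how far they moved over the 7 groups. The highest group mean in CPM was 9.04 times the lowest for Lefty1 and 4.92 times for Lefty2, against 4.22 times for Inhbb, 3.15 times for Tgfbr2 and 2.36 times for Nodal. Skil, Smad7, Acvr2b and Tdgf1 stayed within 1.75, 1.54, 1.43 and 1.2 times. These spans cross both experiments and are not tests. Raw counts behind them ran from 44 to 166 per library for Tgfbr2, from 70 to 1017 for Lefty1 and from 158 to 1742 for Lefty2, and from 17289 to 36587 for Tdgf1, so Tgfbr2 is the member measured with the fewest reads.

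**Figure D1:**
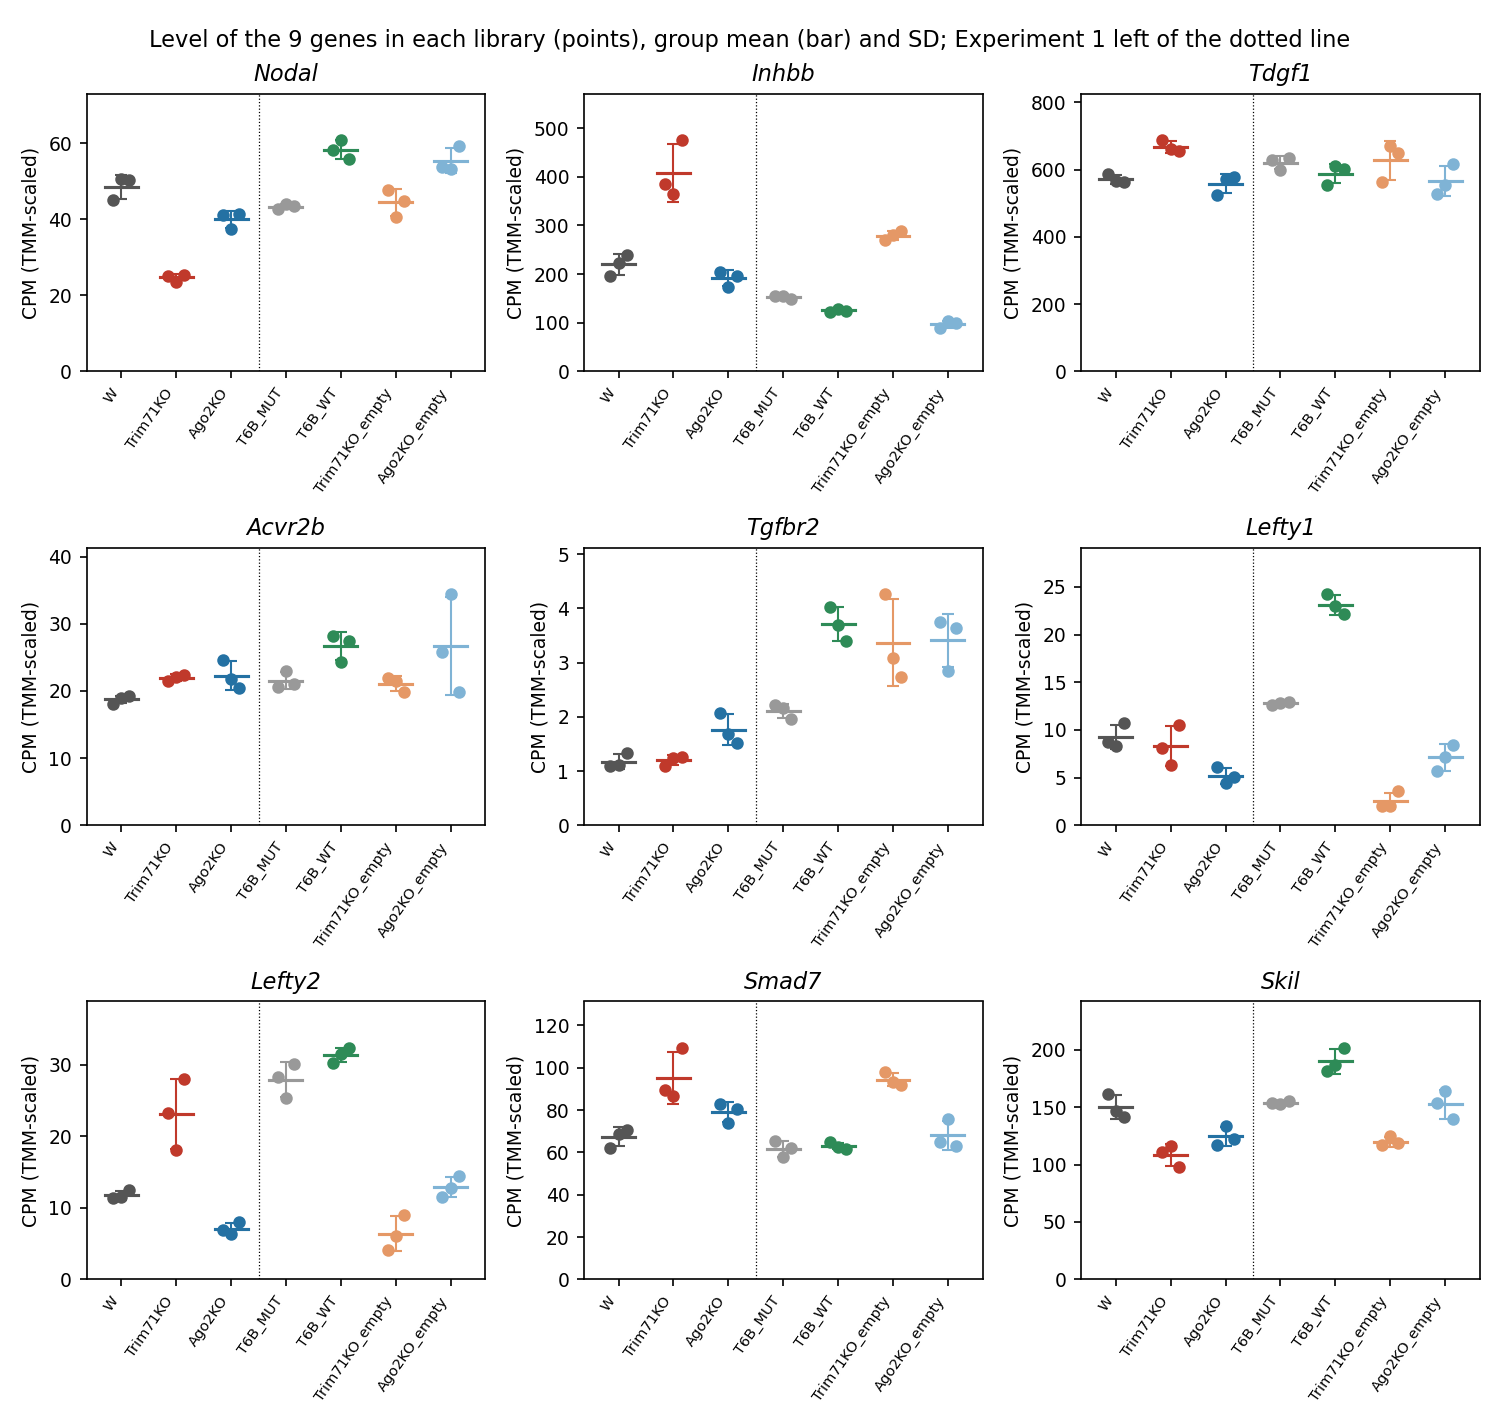
Level of each of the 9 genes in CPM (vertical axes, a separate scale for each gene) in every library (points) of the 7 groups (horizontal axis), with the group mean as a bar and the SD as a whisker, n = 3. Lefty1 was lowest in Trim71KO_empty and highest in T6B_WT, whereas Tdgf1 stayed between 525 and 689 CPM in all 21 libraries.

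Nodal (ENSMUSG00000037171, chromosome 10, 61417972 to 61425338, plus strand) encodes the ligand that gives the pathway its name. Its level was 45.0, 50.5 and 50.3 CPM in W, 25.2, 23.7 and 25.4 in Trim71KO and 41.1, 37.5 and 41.5 in Ago2KO. Both edited groups of Experiment 1 lay wholly below W, and Trim71KO lay far below Ago2KO. In Experiment 2 it was 42.8, 44.0 and 43.4 CPM in T6B_MUT, 58.2, 61.0 and 56.0 in T6B_WT, 47.8, 40.7 and 44.9 in Trim71KO_empty, and 53.8, 53.4 and 59.4 in Ago2KO_empty. There T6B_WT and Ago2KO_empty lay above T6B_MUT, and Trim71KO_empty overlapped it.

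In the edgeR quasi-likelihood test with Benjamini-Hochberg adjustment over all genes, with an adjusted p under 0.05 as the threshold for a call, Nodal fell in Trim71KO by 0.97 (log2, SE 0.06, adjusted p = 4.41e-08), to 0.509 times the level of W. It fell by 0.28 in Ago2KO (SE 0.06, adjusted p = 0.00613 in the same edgeR fit), and Trim71KO was lower than Ago2KO by a log2 value of -0.70 (SE 0.06, adjusted p = 1.16e-06). Under T6B_WT it rose by 0.43 (SE 0.07, adjusted p = 0.000305, edgeR), and in Ago2KO_empty by 0.36 (SE 0.07, adjusted p = 0.00104, edgeR). In Trim71KO_empty the log2 fold change was 0.04 with a 95% interval of -0.10 to 0.17 (adjusted p = 0.743, edgeR). The loss of Nodal mRNA seen in untransfected Trim71-edited cells was thus outside the interval found in the same genotype with an empty plasmid.

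Inhbb (ENSMUSG00000037035, chromosome 1, 119415465 to 119422248, minus strand) encodes the beta-B subunit of Activin and inhibin. Its level was 197, 223 and 240 CPM in W, 385, 364 and 476 in Trim71KO, and 205, 173 and 197 in Ago2KO. Trim71KO lay wholly above W, while Ago2KO overlapped it. In Experiment 2 it was 156, 155 and 149 CPM in T6B_MUT, 123, 129 and 124 in T6B_WT, 270, 280 and 288 in Trim71KO_empty and 88.7, 103 and 99.0 in Ago2KO_empty, 4 groups that did not overlap.

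Inhbb rose in Trim71KO by 0.89 (log2, SE 0.11, adjusted p = 0.000209, edgeR) and in Trim71KO_empty by 0.86 (SE 0.06, adjusted p = 1.49e-08, edgeR), which is 1.86 and 1.82 times the respective controls. The direction was opposite under the blocking peptide, where Inhbb fell by 0.29 (SE 0.06, adjusted p = 0.00354, edgeR), and in Ago2KO_empty, where it fell by 0.66 (SE 0.06, adjusted p = 6.96e-07, edgeR). In Ago2KO the log2 fold change was -0.20 with a 95% interval of -0.41 to 0.02 (adjusted p = 0.273, edgeR). The edited lines set directly against each other differed by 1.09 in Experiment 1 and by 1.53 in Experiment 2 (log2, Trim71-edited over Ago2-edited, SE 0.11 and 0.06, adjusted p = 4.75e-05 and 7.66e-12, edgeR). With Nodal down and Inhbb up in Trim71KO, the ratio of Inhbb to Nodal in RPKM was 8.12 ± 0.973 there against 2.23 in W (SD, n = 3), and 3.11 ± 0.304 in Trim71KO_empty against 1.74 in T6B_MUT (SD, n = 3).

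Tdgf1 (ENSMUSG00000032494, chromosome 9, 110939603 to 110946158, minus strand) encodes Cripto, the co-receptor through which Nodal binds its receptors. It was the most abundant member per length and among the steadiest. Its level was 586, 565 and 562 CPM in W, 689, 661 and 654 in Trim71KO and 525, 571 and 577 in Ago2KO, so that only Trim71KO stood clear of W. It rose in Trim71KO by 0.23 (log2, SE 0.05, adjusted p = 0.00141, edgeR), to 1.17 times W. In the other comparisons with a control it did not pass the test, with log2 fold changes of -0.03 in Ago2KO, -0.08 under T6B_WT, 0.02 in Trim71KO_empty and -0.13 in Ago2KO_empty. The 12 libraries of Experiment 2 ran from 527 to 671 CPM. The 95% intervals for T6B_WT, Trim71KO_empty and Ago2KO_empty, reached no further than -0.28 below and 0.17 above 0. Without Ago2KO_empty replicate 3 the value there was -0.22 and passed the test (adjusted p = 0.0265, edgeR). Of the 1883 windows of 50 bases in the annotated Tdgf1 transcripts, 12.5% also occur in the pseudogene Tdgf1-ps1, so some of its reads could have been shared.

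Acvr2b (ENSMUSG00000061393, chromosome 9, 119402118 to 119434995, plus strand) encodes a type II receptor for Activin and Nodal. It overlaps Gm47320 on the opposite strand, and whether counting used strand is not given in the sources used here, so its reads are uncertain in origin to that extent. Its level was 18.1, 18.9 and 19.2 CPM in W, 21.4, 22.1 and 22.4 in Trim71KO and 24.6, 21.8 and 20.4 in Ago2KO, with both edited groups above W. It rose by 0.23 in Trim71KO (log2, SE 0.07, adjusted p = 0.0230, edgeR) and by 0.25 in Ago2KO (SE 0.07, adjusted p = 0.0247, edgeR). Both calls were narrow. Without W replicate 1 the adjusted p was 0.0640 and 0.0686 in edgeR, without W replicate 2 it was 0.0601 and 0.0722, and it was also past 0.05 without Trim71KO replicate 2 (0.0636) or 3 (0.0544), and without W replicate 3 (0.0567) or Ago2KO replicate 1 (0.116).

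In Experiment 2 Acvr2b was 20.5, 23.0 and 21.1 CPM in T6B_MUT and 28.3, 24.3 and 27.4 in T6B_WT, groups that did not overlap. The log2 fold change of 0.31 (SE 0.15) nevertheless missed the threshold in the fit of all 12 libraries (adjusted p = 0.203, edgeR) and passed it when only the 2 groups were fitted (0.30, adjusted p = 0.00288, edgeR). The libraries labelled Ago2KO_empty gave 25.8, 34.5 and 19.9 CPM, the widest spread of Acvr2b in any group. Their replicates fell in the same order for Acvr2b as for Ago2. That order was not particular to Acvr2b, since Smad7, Skil and Trim71 had it too. Nodal, Lefty1, Lefty2, Tdgf1, Inhbb and Tgfbr2 did not, and its cause was not tested. Without replicate 3 the log2 fold change against T6B_MUT was 0.46 (adjusted p = 0.0015, edgeR), and without replicate 2 it was 0.068 (adjusted p = 0.668, edgeR), against 0.31 (adjusted p = 0.141, edgeR) with all 3. Trim71KO_empty was at 21.1 ± 1.08 CPM (SD, n = 3).

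Tgfbr2 (ENSMUSG00000032440, chromosome 9, 116084293 to 116175360, minus strand) encodes the type II receptor for TGF-beta ligands, which neither Nodal nor Activin uses. It lies 1.52 Mb from Trim71, and Tdgf1 and Acvr2b lie 3.56 and 4.84 Mb from Trim71. The median log2 fold change of the genes on chromosome 9 was 0.01 in Trim71KO and 0.01 in Trim71KO_empty. That median covers the whole chromosome and cannot show a change confined to the region of Trim71, which was not tested. On chromosome 8, which holds none of the 9 genes, the median was 0.19 and 0.09. Dand5 and Smad1, counted below among the listed genes that rose in Trim71KO, lie there. So does Zfp42, one of the pluripotent markers with higher means in both Trim71-edited groups. The level of Tgfbr2 was 1.09, 1.11 and 1.33 CPM in W, 1.10, 1.25 and 1.27 in Trim71KO and 2.08, 1.68 and 1.52 in Ago2KO, with Ago2KO wholly above W. In Experiment 2 it was 2.22, 2.16 and 1.96 CPM in T6B_MUT, 4.03, 3.70 and 3.41 in T6B_WT, 4.27, 3.10 and 2.74 in Trim71KO_empty and 3.75, 2.85 and 3.64 in Ago2KO_empty, so that every library of those 3 groups lay above all 3 libraries of T6B_MUT.

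Tgfbr2 rose under T6B_WT by 0.82 (log2, SE 0.16, adjusted p = 0.0019, edgeR), in Ago2KO_empty by 0.70 (SE 0.17, adjusted p = 0.00446, edgeR), in Trim71KO_empty by 0.68 (SE 0.17, adjusted p = 0.00486, edgeR) and in Ago2KO by 0.58 (SE 0.17, adjusted p = 0.0302, edgeR). In Trim71KO the log2 fold change was 0.04 with a 95% interval of -0.32 to 0.40 (adjusted p = 0.897, edgeR). The call in Ago2KO did not hold in DESeq2 (0.58, adjusted p = 0.0592) or, in edgeR, without W replicate 1 or 2 or without Ago2KO replicate 1 or 2 (adjusted p = 0.0803, 0.104, 0.150 and 0.0563). The call in Trim71KO_empty was lost without its replicate 1 (0.46, adjusted p = 0.0606, edgeR).

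Lefty1 (ENSMUSG00000038793, chromosome 1, 180935022 to 180938400, plus strand) and Lefty2 (ENSMUSG00000066652, chromosome 1, 180893108 to 180899103, plus strand) encode secreted antagonists that bind Nodal and its co-receptors. The genes lie side by side, 35919 bases apart. Their transcripts share 281 of the 1571 windows of 50 bases of Lefty1 (17.9%), and 11.6% of those of Lefty2, so reads in that portion could have been assigned to either.

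Both carry a match to the seed of the microRNAs for which they are known. The seed is bases 2 to 8 of a mature microRNA, counted from the 5′ end, and it pairs with the 3′ UTR. In the RefSeq microRNA table for GRCm38.p6, 5 mature microRNAs of the miR-290 cluster on chromosome 7 and the miR-302 cluster on chromosome 3 share the seed AAGUGCU (mmu-miR-292a-3p and mmu-miR-302a-3p are not shown). They are given 5′ to 3′ to let the seed, in capitals, be read against the sites that follow.

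mmu-miR-291a-3p: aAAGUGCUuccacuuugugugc

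mmu-miR-294-3p: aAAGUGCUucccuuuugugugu

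mmu-miR-295-3p: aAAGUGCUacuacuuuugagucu

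mmu-miR-302b-3p: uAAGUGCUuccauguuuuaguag

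mmu-miR-302d-3p: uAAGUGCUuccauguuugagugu

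Relatives of the same clusters have other seeds, such as AAGUGCC in mmu-miR-290a-3p and AAGUGCA in mmu-miR-291b-3p. The longest annotated 3′ UTR of each gene (GENCODE M21, GRCm38) was searched on the transcript strand for AGCACTT, the complement of the seed, for AGCACTTA, which adds an A and is called an 8mer, and for GCACTTA, the shorter form with that A. The first and the last are contained in the 8mer, and each position was counted once. Of the 9 genes, 4 held a match. The windows below, at most 30 bases each, show the strongest match of each with the matching bases in capitals.

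Lefty1 8mer, chr1:180938213-180938220, plus strand: actgtatgcgaAGCACTTAcatgtataga

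Lefty2 8mer, chr1:180897917-180897924, plus strand: cacccagtttaAGCACTTAcatgggtaaa

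Inhbb match of AGCACTT, chr1:119416140-119416146, minus strand: cacaccacaatAGCACTTgcaggtctac

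Tgfbr2 8mer, chr9:116087771-116087778, minus strand: tcaaaacctaaAGCACTTAttttcaatct

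The Lefty1 match begins at base 238 of a 3′ UTR of 425 bases, and the Lefty2 match at base 104 of one of 1290 bases. Among all 20972 genes with a 3′ UTR, 17.6% held at least 1 of the 3 forms and 2.94% held an 8mer. Long UTRs hold more matches by length alone. Of UTRs within 20% of the length of that of Lefty1, 5.39% held a match, against 17% of those like Lefty2. The share was 23.2% of those like Inhbb and 62.5% of those like Tgfbr2, whose UTR of 6085 bases held 3. Nodal, Tdgf1, Smad7, Skil and Acvr2b held none of these letters in this window. A match is a description of the letters and not of binding.

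In Experiment 1 the paralogs parted in Trim71KO and lay on the same side of W in Ago2KO. Lefty1 was 8.76, 8.34 and 10.8 CPM in W, 8.08, 6.34 and 10.5 in Trim71KO and 6.08, 4.46 and 5.04 in Ago2KO. Lefty2 was 11.3, 11.5 and 12.5 CPM in W, 23.3, 18.1 and 28.0 in Trim71KO and 6.96, 6.37 and 7.99 in Ago2KO. In Ago2KO both lay wholly below W, with log2 fold changes of -0.83 for Lefty1 and -0.72 for Lefty2 (SE 0.18 and 0.14). In Trim71KO, Lefty2 lay wholly above W, at 1.98 times its level (log2 0.98, SE 0.13), while Lefty1 overlapped W (log2 -0.15, SE 0.17; 0.0 without Trim71KO replicate 2).

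In Experiment 2 both lay below T6B_MUT in the edited groups and above it under the peptide, where Lefty2 moved less than Lefty1. Lefty1 was 12.6, 12.9 and 12.9 CPM in T6B_MUT, 24.3, 22.9 and 22.1 in T6B_WT, 2.06, 2.04 and 3.57 in Trim71KO_empty and 5.69, 7.20 and 8.47 in Ago2KO_empty. Lefty2 was 28.3, 25.4 and 30.2 CPM in T6B_MUT, 30.3, 31.5 and 32.4 in T6B_WT, 4.06, 6.13 and 8.96 in Trim71KO_empty and 11.6, 12.8 and 14.4 in Ago2KO_empty. Neither gene's groups overlapped T6B_MUT, although the lowest T6B_WT value of Lefty2 exceeded the highest of T6B_MUT only slightly.

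The log2 fold changes against T6B_MUT were 0.85 for Lefty1 and 0.17 for Lefty2 under T6B_WT (SE 0.15 and 0.19). In Trim71KO_empty they were -2.32 and -2.14 (SE 0.18 and 0.21), that is 0.20 and 0.228 times the control, and in Ago2KO_empty -0.85 and -1.11 (SE 0.16 and 0.20). The effect of the Trim71 edit on Lefty2 thus had one direction in untransfected cells and the other with an empty plasmid against T6B_MUT, a difference of 3.12 on the log2 scale (SE 0.28), and for Lefty1 the difference was 2.17 (SE 0.28). For the Ago2 edit, the differences between experiments were 0.03 and 0.41 (SE 0.26 and 0.28). Because those responses were a reason for choosing the genes, no p-value is given.

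**Figure D2:**
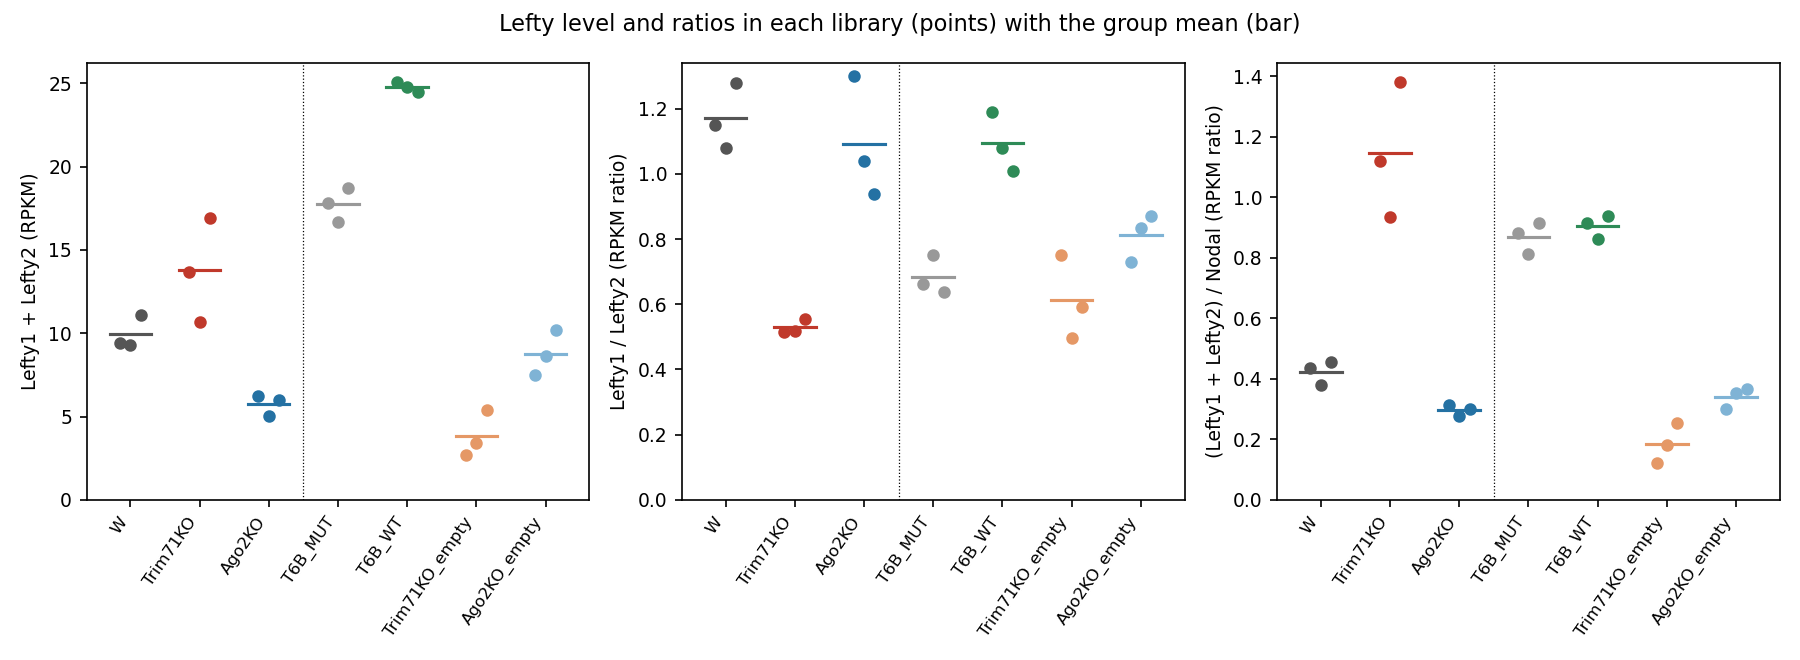
Lefty1 plus Lefty2 in RPKM, the ratio of Lefty1 to Lefty2, and the ratio of their sum to Nodal (vertical axes) in every library (points) of the 7 groups (horizontal axis), with the group mean as a bar. The sum relative to Nodal was above that of W in Trim71KO and below that of T6B_MUT in Trim71KO_empty. These edited groups belong to different experiments, which differ in transfection, plasmid and control group together.

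The balance of antagonist and ligand followed from these levels. Lefty1 and Lefty2 together stood at 0.422 ± 0.0388 times the RPKM of Nodal in W, at 1.15 ± 0.223 times in Trim71KO and at 0.296 ± 0.0172 times in Ago2KO (SD, n = 3 in each). In Experiment 2 the same ratio was 0.869 ± 0.0519 in T6B_MUT, 0.905 ± 0.0377 in T6B_WT, 0.185 ± 0.0677 in Trim71KO_empty and 0.339 ± 0.0352 in Ago2KO_empty (SD, n = 3 in each). In Trim71KO the Lefty RNA per length was thus close to or above that of Nodal, at 0.934 to 1.38 times over the 3 libraries, and in the libraries of Trim71KO_empty it was 0.12 to 0.255 times. The ratio of Lefty1 to Lefty2 was 0.53 ± 0.0222 in Trim71KO against 1.17 ± 0.101 in W, and was 1.1 ± 0.0875 in T6B_WT against 0.684 ± 0.0607 in T6B_MUT (SD, n = 3 in each, described without a test).

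Smad7 (ENSMUSG00000025880, chromosome 18, 75367529 to 75395935, plus strand) encodes the inhibitory SMAD that occupies activated type I receptors. Its level was 62.2, 68.8 and 70.8 CPM in W, 89.6, 86.8 and 109 in Trim71KO and 83.0, 74.0 and 80.7 in Ago2KO, with both edited groups above W. In Experiment 2 it was 65.3, 57.9 and 62.1 CPM in T6B_MUT, 64.7, 62.7 and 61.6 in T6B_WT, 97.7, 93.3 and 91.8 in Trim71KO_empty and 65.0, 75.8 and 63.1 in Ago2KO_empty, and only Trim71KO_empty stood apart. Smad7 rose by 0.50 in Trim71KO (log2, SE 0.08, adjusted p = 0.00045, edgeR) and by 0.61 in Trim71KO_empty (SE 0.07, adjusted p = 4.64e-06, edgeR). In Ago2KO its log2 fold change of 0.24 (SE 0.08) missed the threshold (adjusted p = 0.0684, edgeR) and passed it when only the 2 groups were fitted (0.23, adjusted p = 0.022, edgeR). Under T6B_WT it was 0.03 with a 95% interval of -0.11 to 0.17 (adjusted p = 0.846, edgeR), and in Ago2KO_empty 0.14 (SE 0.07, adjusted p = 0.162, edgeR).

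Skil (ENSMUSG00000027660, chromosome 3, 31095058 to 31122577, plus strand) encodes SnoN, a nuclear corepressor of SMAD complexes. Its level was 162, 147 and 142 CPM in W, 111, 116 and 97.5 in Trim71KO and 117, 134 and 122 in Ago2KO, with both edited groups below W. In Experiment 2 it was 153, 152 and 156 CPM in T6B_MUT, 181, 187 and 202 in T6B_WT, 117, 125 and 118 in Trim71KO_empty, and 154, 164 and 139 in Ago2KO_empty. T6B_WT lay above T6B_MUT there, Trim71KO_empty lay below it, and Ago2KO_empty overlapped it.

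Skil fell by 0.47 in Trim71KO (log2, SE 0.07, adjusted p = 0.000158, edgeR) and by 0.36 in Trim71KO_empty (SE 0.07, adjusted p = 0.000505, edgeR). It fell by 0.27 in Ago2KO (SE 0.07, adjusted p = 0.0169, edgeR), a call lost without W replicate 1 or Ago2KO replicate 1 or 3 (adjusted p = 0.0567, 0.0713 and 0.0632, edgeR). Under T6B_WT it rose by 0.30 (SE 0.07, adjusted p = 0.00377, edgeR), and in Ago2KO_empty the log2 fold change was -0.01 with a 95% interval of -0.14 to 0.12 (adjusted p = 0.901, edgeR). Smad7 and Skil, both inhibitors inside the cell, thus moved in opposite directions in both Trim71-edited groups.

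**Figure D3:**
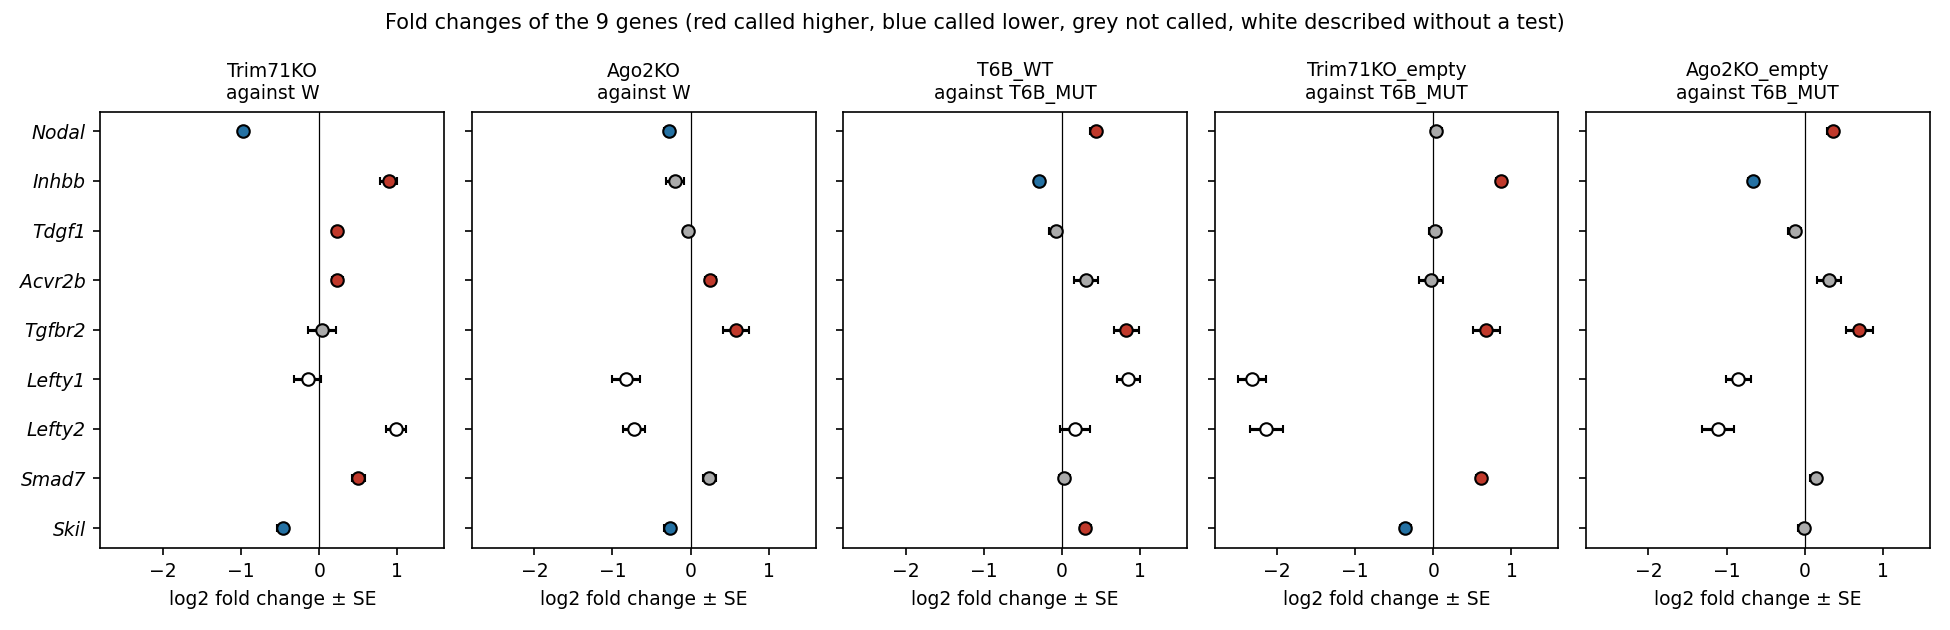
Log2 fold change with its SE (horizontal axes) of the 9 genes (vertical axis) in the 5 comparisons with a control, 1 panel each. Red points were called higher, blue lower and grey not called at an adjusted p under 0.05 in edgeR, and the white points are Lefty1 and Lefty2, which were not tested; both white points lie near -2 in Trim71KO_empty.

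Counted over the 7 members that were tested, 4 rose and 2 fell in Trim71KO against W, where 32.6% of all 21210 genes tested were called, 16.9% higher and 15.6% lower. In Ago2KO 2 rose and 2 fell, against 18.0% of all genes (10.2% higher, 7.78% lower). In Experiment 2, with 21505 genes tested, 3 rose and 1 fell under T6B_WT, against 16.0% of all genes (9.29% higher, 6.69% lower; 2045 genes called without T6B_MUT replicate 1 in place of 3437). The count was 3 and 1 in Trim71KO_empty against 27.8% (14.4% higher, 13.4% lower). In Ago2KO_empty 2 rose and 1 fell against 28.8% of all genes (16.4% higher, 12.4% lower; 3894 genes without T6B_MUT replicate 1 and 3923 without Ago2KO_empty replicate 1 in place of 6201), a share of the members not far from that of all genes. Between the Trim71-edited and the Ago2-edited cells, 3 members were higher and 3 lower in Experiment 1, against 34.2% of all genes (17.1% in each direction), and 2 were higher and 2 lower in Experiment 2, against 31.6% (14.7% higher, 16.9% lower). Of those 6 calls in Experiment 1, those of Skil, Smad7 and Tgfbr2 were lost without some of the libraries, Skil without Trim71KO replicate 1 or 3 or Ago2KO replicate 2 or 3, Smad7 without Trim71KO replicate 3 or Ago2KO replicate 2 or 3, and Tgfbr2 without replicate 1 of either group or in DESeq2 (adjusted p of 0.0555 to 0.16 in these fits). The comparisons of Experiment 1 share the W libraries and those of Experiment 2 share the T6B_MUT libraries, so likeness between them is in part that of a common control.

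The fold changes of an edit were then set against each other across experiments, which share no libraries. For the Trim71 edit, 1 of the 7 tested members differed, where 10.1% of all 22258 genes did (5.01% with a positive and 5.04% with a negative difference). It was Nodal, by -1.01 (Experiment 1 minus Experiment 2, log2, SE 0.10, adjusted p = 1.13e-07, edgeR on all 21 libraries). Inhbb differed by 0.03 (95% interval -0.21 to 0.26), Skil by -0.11 (-0.31 to 0.08) and Smad7 by -0.11 (-0.32 to 0.11), and none of these passed the test (adjusted p = 0.927, 0.550 and 0.634, edgeR). For Tgfbr2 the difference of -0.64 (SE 0.25) also missed it (adjusted p = 0.112, edgeR).

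For the Ago2 edit, 2 of the 7 differed against 2.13% of all genes (0.669% positive, 1.46% negative). That share rests on 473 genes, a number that was 1634 without Ago2KO_empty replicate 3 and 269 without its replicate 1, and 289, 287 and 306 without replicate 1 of W, Ago2KO and T6B_MUT. Nodal differed by -0.62 (SE 0.10, adjusted p = 0.000299, edgeR), having fallen in Ago2KO and risen in Ago2KO_empty, and Inhbb by 0.48 (SE 0.12, adjusted p = 0.0329, edgeR). The Inhbb call was lost when any 1 of 7 libraries was left out, with an adjusted p of up to 0.154 (edgeR, without W replicate 1). Without Ago2KO_empty replicate 2, whose Ago2 level goes against its label, the differences were -0.66 for Nodal and 0.51 for Inhbb (adjusted p = 0.000171 and 0.0306, edgeR). That fit still held replicate 1, with an intermediate Ago2 level of 87.4 CPM.

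**Figure D4:**
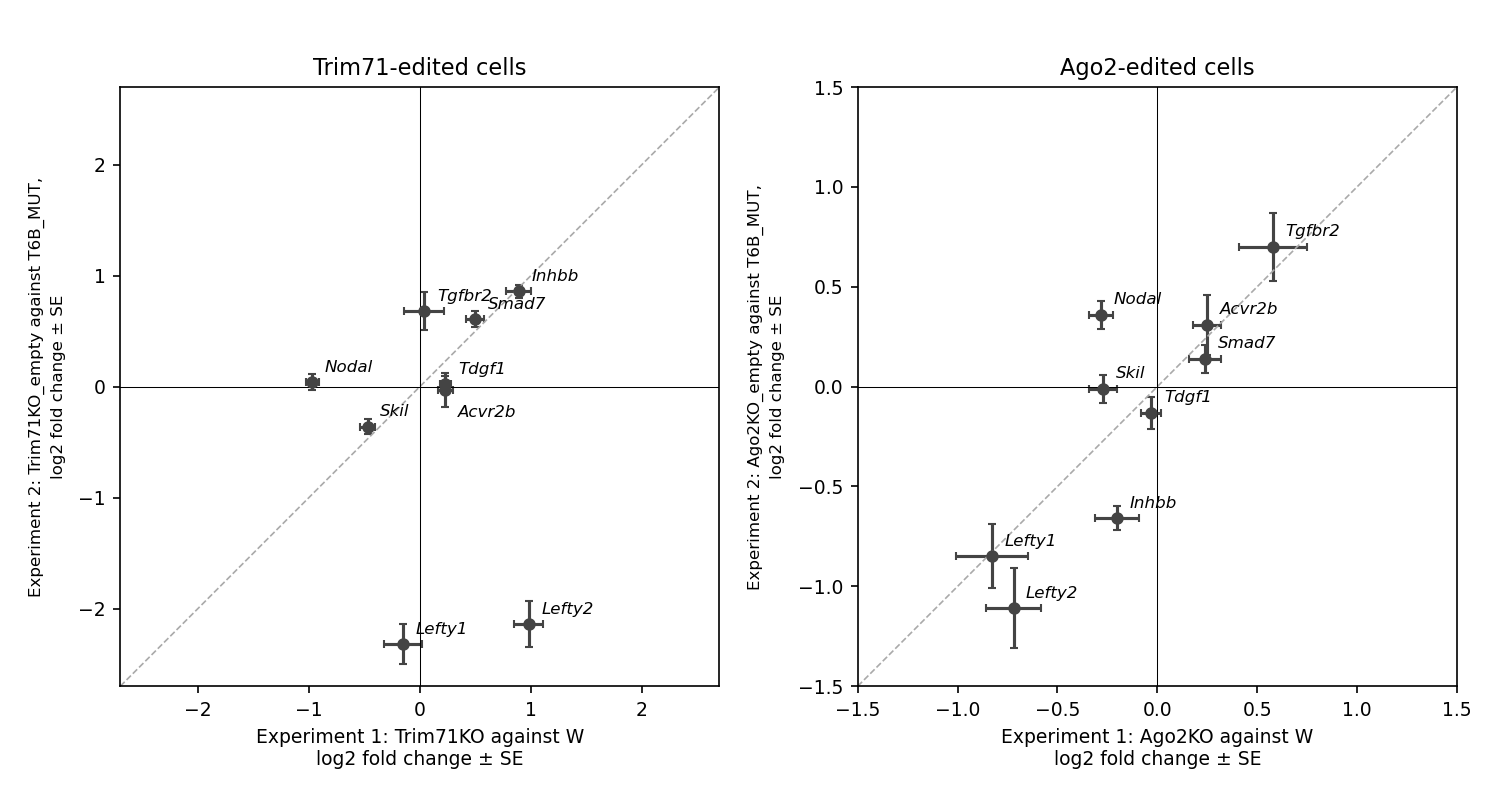
Log2 fold change of each of the 9 genes in Experiment 1 (horizontal axes) against Experiment 2 (vertical axes) for the Trim71-edited cells (left) and the Ago2-edited cells (right), with SE bars and a dashed line of equality. In the left panel Inhbb, Smad7 and Skil lie near the line, whereas Nodal, Lefty1 and Lefty2 lie far from it.

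The other genes of the pathway were taken from lists by role, 40 genes in all, of which 35 were in the table (Acvr1c, Cer1, Cfc1, Inhba and Lhx1 were not analysed here). In Trim71KO 11 of the 34 tested rose and 4 fell (Foxa2, Tgfb2, Fstl3 and Tgif2), where 16.9% of all genes were higher and 15.6% lower, with a median log2 fold change of 0.10. Foxa2, Tgfb2 and Fstl3 were scarcely detected, at means of 0.237, 0.751 and 0.381 CPM in Trim71KO against 0.802, 1.47 and 0.726 in W. Dand5, which rose, was as low, at 1.02 against 0.578 CPM. Of the effectors, Smad3, which carries the signal to the nucleus, rose by 0.73 (SE 0.06, adjusted p = 7.73e-07, edgeR). In Ago2KO 9 rose and 2 fell, where 10.2% of all genes were higher and 7.78% lower, with a median of 0.19 against 0.0 for all genes. Those that rose included Fst, the Activin-binding antagonist follistatin, at 0.56 (SE 0.08, adjusted p = 0.00012, edgeR), and Smad3 at 0.48 (SE 0.06, adjusted p = 0.00012, edgeR). Pmepa1, a feedback inhibitor of the pathway, fell in Ago2KO by 0.38 (SE 0.08, adjusted p = 0.00317, edgeR). Foxa2 was the other gene that fell, to a mean of 0.141 CPM.

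In Experiment 2, 9 of 35 rose under T6B_WT and 1 fell, where 9.29% of all genes were higher and 6.69% lower, with a median of 0.20 where that of all genes was 0.01. Tgfbr3, the TGF-beta co-receptor betaglycan, rose by 0.96 (SE 0.15, adjusted p = 0.00015, edgeR) and Smad3 by 0.61 (SE 0.08, adjusted p = 2.49e-05, edgeR). The gene that fell was Foxh1, the DNA-binding partner of SMAD2 in Nodal signalling, by 0.49 (SE 0.10, adjusted p = 0.00223, edgeR). In Ago2KO_empty 10 rose and 2 fell (median 0.15, all genes 0.03), where 28.8% of all genes were called, 16.4% higher and 12.4% lower. Tgfbr3 rose by 1.03 (SE 0.15, adjusted p = 4.98e-05, edgeR) and Fst by 0.73 (SE 0.10, adjusted p = 2.65e-05, edgeR), while Foxh1 fell by 0.31 (SE 0.10, adjusted p = 0.0269, edgeR), and so did Tgif2.

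In Trim71KO_empty 9 rose and 5 fell, where 27.8% of all genes were called, 14.4% higher and 13.4% lower, with a median of -0.07 against 0.0 for all genes. Eomes, a T-box factor induced by Nodal, rose by 0.68 (SE 0.14, adjusted p = 0.00145, edgeR), whereas Tgif2, a corepressor of SMAD proteins, fell by 0.69 (SE 0.09, adjusted p = 9.61e-06, edgeR) and Gdf3, a Nodal-related ligand, by 0.37 (SE 0.08, adjusted p = 0.0011, edgeR). Eomes was also called higher in Ago2KO_empty (0.46, SE 0.14, adjusted p = 0.0219, edgeR), and in Trim71KO and Ago2KO, where Nodal fell. Under T6B_WT it was not called. Among the receptors other than the members, Acvr1b and Acvr2a were those that rose in both Trim71-edited groups, and Tgfbr1 and Tgfbr3 those that rose in Ago2KO, in T6B_WT and in Ago2KO_empty (Acvr1b rose in Ago2KO too). Genes given here without a fold change were named after their values were seen. Fst, Tgfbr3, Eomes, Tgif2, Tgfb2, Fstl3, Acvr1b and Acvr2a overlap other annotated genes, so their counts are uncertain to that extent. Since the lists were made with results known, these counts describe the genes and are not read as a response of the pathway.

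**Figure D5:**
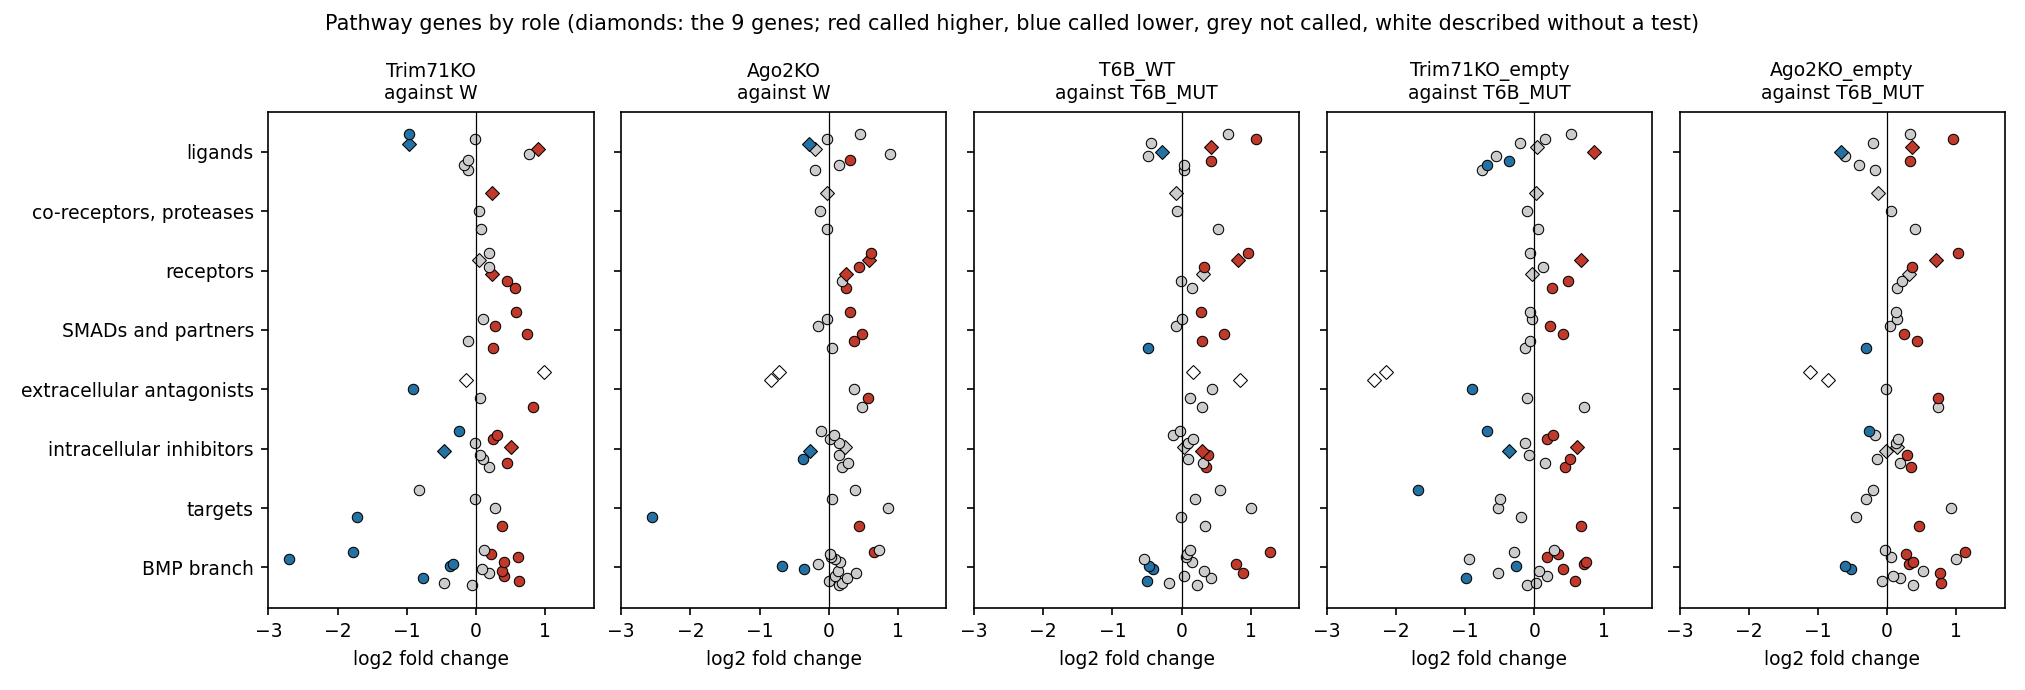
Log2 fold change (horizontal axes) of the pathway genes arranged by role (vertical axis) in the 5 comparisons with a control, with diamonds for the 9 genes and circles for the others. Red was called higher, blue lower and grey not called at an adjusted p under 0.05 in edgeR, white marks Lefty1 and Lefty2, which were not tested, and the called receptors and co-receptors lie to the right of 0 in all 5 panels.

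The BMP branch, the sister pathway that signals through SMAD1 and SMAD5, was represented by 16 genes. In Trim71KO 6 rose and 5 fell, where 32.6% of all genes were called, among them Bmp4 with 0.62 (SE 0.06, adjusted p = 3.23e-06, edgeR) and the inhibitory Smad6, which fell by 1.78 (SE 0.23, adjusted p = 0.000216, edgeR) while its relative Smad7 rose. Id1, a direct BMP target, fell in all 5 comparisons with a control: by 0.38 in Trim71KO (SE 0.10, adjusted p = 0.0109), 0.67 in Ago2KO (SE 0.10, adjusted p = 0.000652), 0.47 under T6B_WT (SE 0.08, adjusted p = 0.000427), 0.27 in Trim71KO_empty (SE 0.08, adjusted p = 0.0144) and 0.61 in Ago2KO_empty (SE 0.08, adjusted p = 2.12e-05, all edgeR). In Ago2KO, where 18.0% of all genes were called, 1 of the 16 rose, Smad6 by 0.65 (SE 0.20, adjusted p = 0.0467, edgeR), and 2 fell, Id1 and Chrd. Under T6B_WT 3 rose and 3 fell against 16.0% of all genes called, with Id2 up by 0.78 (SE 0.11, adjusted p = 0.000114, edgeR) and Bmp4 down by a log2 value of -0.50 (SE 0.08, adjusted p = 0.000154, edgeR). In Trim71KO_empty and in Ago2KO_empty 6 rose and 2 fell, against 27.8% and 28.8% of all genes called. Id2 and Id3 rose in Trim71KO_empty, by 0.72 and 0.75 (SE 0.11 and 0.09, adjusted p = 0.000119 and 5.8e-06, edgeR). Both were also called higher in Ago2KO_empty. In Trim71KO Id3 was called higher and Id2 lower, and in Ago2KO neither was called. The fall of Id1 was thus not shared by its relatives Id2 and Id3. Bmp4 and Chrd overlap other annotated genes.

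Markers of other cell states moved with several of these groups. The 6 primitive endoderm markers, all detected, summed to 24.8 to 28.6 CPM in W but to 4.79 to 5.05 in Trim71KO and 7.44 to 9.25 in Ago2KO, and to 16.8 to 16.9 in T6B_MUT against 6.31 to 9.01 in Trim71KO_empty, 10.3 to 14.1 in Ago2KO_empty and 13.7 to 16.0 in T6B_WT. In both Trim71-edited groups the means of Gata6, Gata4, Sox17, Dab2 and Foxa2 were below their controls. Sox7 was little changed in Trim71KO, at 1.78 CPM against 1.98 in W. It was higher in Trim71KO_empty, at 2.00 CPM against 1.12 in T6B_MUT. The 4 formative epiblast markers summed to 264 to 275 CPM in W, 183 to 192 in Trim71KO and 229 to 240 in Ago2KO. In Experiment 2 their sums were 112 to 115 CPM in T6B_MUT, 105 to 107 in T6B_WT, 93.5 to 112 in Trim71KO_empty and 113 to 123 in Ago2KO_empty. Dnmt3b made up most of each sum, with means of 231 CPM in W, 160 in Trim71KO, 207 in Ago2KO, 88.5 in T6B_MUT and 77.9 in T6B_WT. Otx2 was lower in Trim71KO and Ago2KO than in W, at 23.1 and 23.2 against 29.1 CPM. In Experiment 2 it was 22.5 CPM in T6B_MUT, 26.2 in T6B_WT, 20.3 in Trim71KO_empty and 26.5 in Ago2KO_empty. The 6 markers of 2-cell-like cells, a rare state in such cultures, summed to 72.3 to 74.4 CPM in T6B_WT and 52.0 to 62.9 in Ago2KO_empty against 15.2 to 16.5 in T6B_MUT, the groups in which Nodal and Tgfbr2 rose, and to 0.653 to 1.17 in Trim71KO against 11.0 to 12.6 in W. In Trim71KO_empty, where Tgfbr2 also rose, they summed to 15.7 to 16.9 CPM, and in Ago2KO, where Tgfbr2 rose and Nodal fell, to 2.51 to 2.93. No marker had a group mean of 0, although Fgf5 was at 0 in the lowest library of Ago2KO, T6B_WT and Ago2KO_empty, Tcstv1 in that of Trim71KO and the feeder marker Col1a2 in that of Ago2KO. Their part in the changes of the pathway genes was not tested.

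Over the 21 libraries, with log2 CPM centred on each experiment, the genes whose pattern was most like that of Lefty1 were Gstp1 (Pearson r = 0.94), Hadh (0.91), Gnas, Gm5388 and Pmaip1 (0.90 each), out of 12607 genes above a floor of 2 in mean log2 CPM. Among the members Lefty2 stood at 0.89, Skil at 0.69, Inhbb at -0.40 and Smad7 at -0.65. For Nodal the most alike were Gm6768 and Coch (0.90 each) and Gm2541, Cln6 and Utp23 (0.89 each), with Skil at 0.65, Lefty1 at 0.24, Inhbb at -0.70 and Tdgf1 at -0.73. These values describe likeness over libraries that share groups and controls. The pattern of Nodal was thus closer to that of Skil than to that of its antagonists.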

How the data were processed

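Total RNA libraries were made with a stranded kit, per the labels' protocols. The submitters' processing notes name bcl2fastq 2.17, STAR 2.7.3a and the builds GRCm38 and mm10; the counting annotation and its use of strand are not given in the sources used here. The authors deposited whole raw counts and RPKM for 22512 genes and 21 libraries, with a gene length that, per the file headers, comes from QuasR. The deposited RPKM match counts per kilobase on a library size of 0.962 to 1.05 times the column total. The deposited gene length was not tested.

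Raw counts were tested in edgeR 4.0.16 (R 4.3.3; quasi-likelihood, robust, TMM, filterByExpr with a minimum count of 10, Benjamini-Hochberg over all genes): 9 libraries of Experiment 1 (21210 genes), 12 of Experiment 2 (21505), and all 21 (22258) for differences of fold changes. CPM are TMM-scaled within an experiment, and RPKM served only for comparing genes. The SE of a fold change is its absolute log2 value divided by the square root of the edgeR F statistic. Intervals at 95% use this SE and the normal quantile, so they are narrower than the F test would give. Procedures were tested on simulated data. The members and lists were chosen with earlier results of these data known. Other genes were named by rule: the up to 3 called pathway or BMP genes with the largest rise and fall above a floor of 2 in mean log2 CPM, and the 5 genes most like Lefty1 and Nodal. Coordinates and 3′ UTRs are from GENCODE M21 (GRCm38), matched to 22480 IDs. Alternatives were DESeq2 1.42.0, other scaling and filters, smaller fits, a replicate block and leaving out each library.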

Additional observations from a re-analysis of the deposited data

Results flagged for a closer look

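The effect of the Trim71 edit on Nodal differed between experiments by -1.01 (log2, SE 0.10, adjusted p = 1.13e-07, edgeR), since Nodal fell in Trim71KO and its log2 fold change was 0.04 in Trim71KO_empty against T6B_MUT. The effect of the Ago2 edit on Nodal differed by -0.62 (SE 0.10, adjusted p = 0.000299, edgeR), with a fall in Ago2KO and a rise in Ago2KO_empty. For Inhbb under the Ago2 edit the difference was 0.48 (SE 0.12, adjusted p = 0.0329, edgeR), with a fall in Ago2KO_empty and no call in Ago2KO. For Lefty2 every Trim71KO library lay above every W library and every Trim71KO_empty library lay below every T6B_MUT library, a difference of 3.12 (SE 0.28) that was not tested. Lefty2 was selected because its fold changes differed between the experiments, so this separation describes the choice and is not a separate finding. The experiments differ in transfection, plasmid and control group together, and these cannot be told apart.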

How the results depend on the processing

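Calls rest on 3 libraries a group, and Tgfbr2, Lefty1 and Lefty2 on the fewest reads. The replicate numbers did not pair the libraries: deviations of 27 same-numbered pairs correlated at -0.21 to 0.22, and of differently numbered ones at -0.26 to 0.23. With the replicate number as a block, 6886 genes were called in Trim71KO against W in place of 6906, and the call of 1 member changed, Smad7 in Ago2KO (0.24, adjusted p = 0.034, edgeR). In T6B_WT, 5632 genes were called when only the 2 groups were fitted, against 3437 with all 12 libraries. The counts of pathway genes called, leaving out Lefty1 and Lefty2, stayed within 1.5 times in the comparisons not named next. Leaving out each library gave 1 (without T6B_MUT replicate 1) to 5 (without Ago2KO_empty replicate 3) lower genes for Ago2KO_empty, against 3. For the difference of the Trim71 edit between experiments it gave 1 (without W replicate 1; 2 without T6B_MUT replicate 1; 3 without W replicate 2, any Trim71KO library, T6B_MUT replicate 2 or 3 or Trim71KO_empty replicate 1) to 4 positive genes against 5, and 1 (without Trim71KO replicate 1) to 4 negative against 3. For the Ago2 edit it gave 0 (without W replicate 1 or 2, Ago2KO replicate 1 or 3, T6B_MUT replicate 1 or 2, or Ago2KO_empty replicate 1; 1 without T6B_MUT replicate 3) to 3 positive genes against 2, and 1 to 2 (without Ago2KO_empty replicate 3) negative against 1; DESeq2 and the filter at CPM over 1 each gave 1 positive.

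Values near 0 that missed the threshold changed sign when a library was left out. They ranged from -0.013 to 0.13 for Tgfbr2 in Trim71KO, -0.06 to 0.0059 for Tdgf1 in Ago2KO, -0.081 to 0.06 for Acvr2b between Trim71KO and Ago2KO, and -0.027 to 0.058 for Smad7 under T6B_WT. In Trim71KO_empty they ranged from -0.023 to 0.092 for Nodal, -0.038 to 0.084 for Tdgf1 and -0.069 to 0.015 for Acvr2b. The range was -0.088 to 0.021 for Skil in Ago2KO_empty, and up to 0.13 for Tgfbr2 between Trim71KO_empty and Ago2KO_empty. For differences between experiments it was -0.097 to 0.1 for Inhbb (Trim71 edit), -0.24 to 0.0022 for Tgfbr2 and up to 0.17 for Acvr2b (Ago2 edit). Without Trim71KO_empty replicate 3 the Lefty1 value there was -2.65, and the differences between experiments were 2.49 for Lefty1 and 3.45 for Lefty2. The cause of these changes was not tested.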
